A study of Mus musculus with 15 samples.

Results

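Liensinine given together with angiotensin II was compared with the normal state at the level of messenger RNA. The comparison sets the 5 libraries labelled Lien (Lien 11 to Lien 15) against the 5 labelled NS (NS 1 to NS 5), which are 10 of the 15 libraries of the series, chosen by their column names in the deposited table. Each library holds rRNA-depleted total RNA of vascular tissue of C57BL/6 mice aged 10 weeks. NS is labelled as normal, and what the letters stand for is not stated. Lien is labelled as hypertension with Lien, which the title of the series gives as liensinine, and it carries angiotensin II (AngII) as well. The 5 AngII libraries (AngII 6 to AngII 10), labelled as hypertension, are given beside part of the results. Dose, route and duration of either agent and the sex of the mice are not in the labels. A difference between Lien and NS therefore holds angiotensin II and liensinine together, and they cannot be told apart in this contrast alone. Nothing in the labels states that the libraries come from separate mice, so p-values measure the spread between libraries.

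Angiotensin II is a peptide hormone that constricts arteries through the receptor AT1 and activates the MAP kinases ERK, JNK and p38 in the vessel wall. Active MAP kinases induce immediate early genes, which encode transcription factors such as those of the Fos, Egr and Atf families. They also induce their own inhibitors, the dual-specificity phosphatases (Dusp genes) and the Sprouty proteins, so that messages of these inhibitors are often read as a trace of recent signalling. TGF-β signals through its receptors and Smad proteins to collagen and other matrix genes. Liensinine is an alkaloid of the lotus seed embryo, and the title of the series names MAPK and TGF-β/Smad signalling as the pathways of interest.

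The values are transcript abundances that sum to 477095 to 569546 per library and were read as FPKM, fragments scaled to transcript length and library size, summed here to genes. Smooth muscle actin Acta2 stood at 776 to 1433 FPKM in NS and at 798 to 1928 in Lien apart from 188 in Lien 13, and Pecam1, an endothelial adhesion molecule, at 69.2 to 126.6 and at 64.7 to 114 FPKM, so RNA of vessel wall was present in every library. Cardiomyocyte RNA was uneven, although an extraction note in the labels speaks of heart tissue. Myh6, the heavy chain of heart muscle myosin, stood at 176 FPKM in NS 1, 0.0196 in NS 2, 0.451 in NS 3, 29.1 in NS 4 and 338 in NS 5, and at 0.0246 to 50.1 in Lien. Ucp1, the uncoupling protein of brown fat, was at 250 to 1477 FPKM in NS and at 143 to 1921 in Lien. The libraries NS 2, NS 3 and Lien 11 held far more sympathetic neuron RNA than the other 7, with Th, the first enzyme of noradrenaline synthesis, at 69.8 to 106 FPKM against at most 2.01. NS 3 alone was rich in skeletal muscle, with the muscle creatine kinase Ckm at 1830 FPKM. These tissues lie next to arteries, and their part in the gene results below was not tested beyond the fits given at the end.

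**Figure D1:**
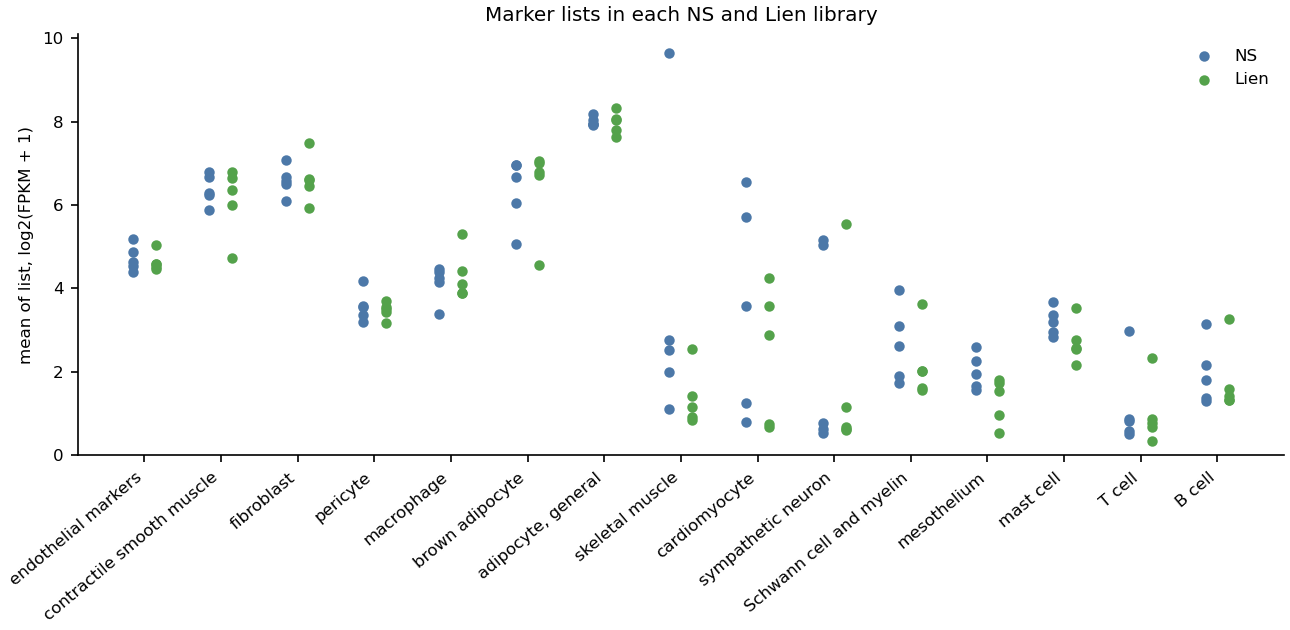
Mean of each marker list, as log2(FPKM + 1), in the 5 NS libraries (blue) and the 5 Lien libraries (green). Sympathetic neuron markers stand high in 2 NS libraries and 1 Lien library, skeletal muscle markers in 1 NS library, and the mesothelial and mast cell lists tend to lie lower in Lien.

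Across the transcriptome the Lien libraries differed from NS in few genes, and most of those were lower. Of 15586 genes that reached 0.5 FPKM in 5 or more libraries, 36 (0.231%) passed limma at a Benjamini-Hochberg adjusted p under 0.05, tested two-sided on log2(FPKM + 1). Of these, 31 (0.199%) were lower in Lien, with a median log2 difference of -1.16, and 5 (0.0321%) were higher, with a median of 1.09. The count was 7 in a fit of the 10 compared libraries alone and 94 with library weights. Leaving out 1 library gave 18 without NS 1, 11 without NS 2, 23 without NS 4, 20 without Lien 13 and 16 without Lien 14. After scaling all libraries to one median, 10 were higher and 19 lower, and after quantile normalization 10 and 37. All 31 lower genes and 4 of the 5 higher ones had no overlap between the 5 Lien and the 5 NS libraries, against 281 (1.8%) of all tested genes, of which 139 (0.892%) were above and 142 (0.911%) below. The called genes were picked by p in these same libraries, so their separation largely follows from that choice and is no independent support. The median of all genes was -0.01, with 7447 higher and 8139 lower. At an unadjusted p under 0.05 there were 1100 genes (7.06%), 524 higher (3.36%) and 576 lower (3.7%), where 779 would be expected by chance. In the same fit 12 genes (0.077%) passed between AngII and NS, and 2 (0.0128%) between Lien and AngII. These 3 comparisons share libraries. Of the 31 genes lower in Lien, the AngII mean lay between NS and Lien in 28 and not above Lien in 3. Those genes were chosen by their NS and Lien values.

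**Figure D2:**
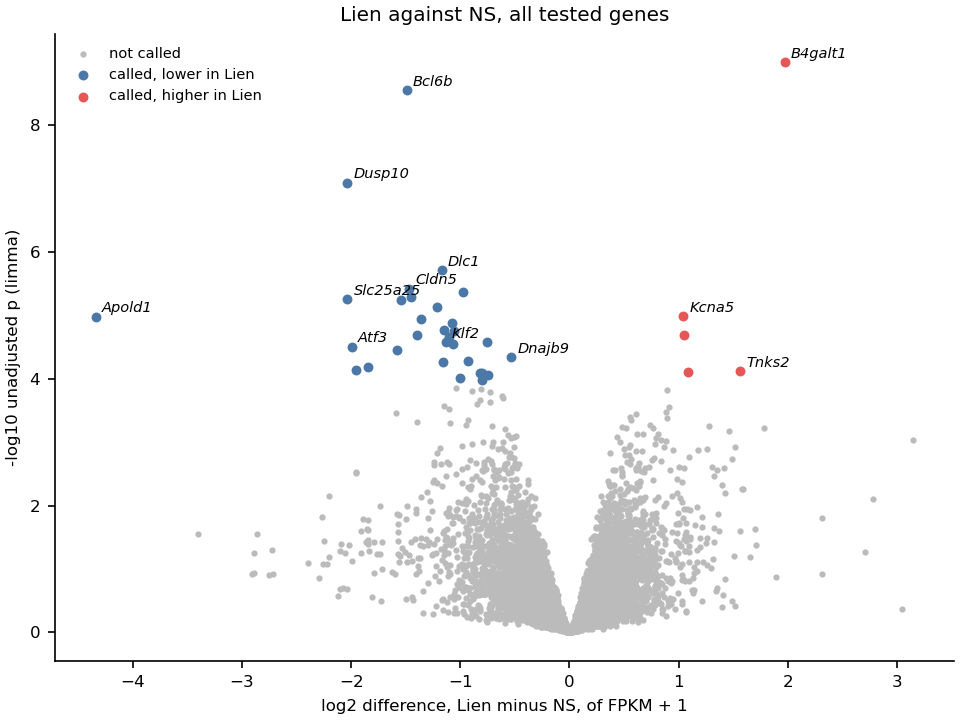
Each point is 1 of the 15586 tested genes. The x axis is the log2 difference, Lien minus NS, of FPKM + 1, and the y axis is -log10 of the unadjusted limma p. Blue points are the 31 called genes lower in Lien and red points the 5 called genes higher, and B4galt1, Bcl6b and Dusp10 have the smallest p.

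Of 16 measured MAPK phosphatases and Sprouty or Spred inhibitors, 3 fell (Dusp10, Spry4 and Dusp6), against 0.199% of all tested genes, none rose, 12 were on the lower side, and the median log2 difference was -0.57 against -0.01 over all genes. In 8 of the 16, every Lien library was below every NS library, as in 142 (0.911%) of all tested genes. The median was also negative after quantile normalization (median -0.60) and without the 6 libraries rich in nerve RNA (-0.57). Between AngII and NS the median of the list was -0.03, and between Lien and AngII it was -0.28. The AngII values of the called members below therefore do not stand for the whole list.

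Dusp10 encodes a phosphatase that acts on p38 and JNK. It stood at 24.1, 16.1, 14.3, 16.9 and 20.5 FPKM in NS 1 to NS 5 and at 3.49, 3.12, 3.22, 2.89 and 6.26 FPKM in Lien 11 to Lien 15. The highest Lien library was below the lowest NS library by more than the range of the Lien group. The gene fell by 2.03 on the log2 scale (SE 0.21, limma adjusted p = 0.000419), and the mean went from 18.4 ± 3.90 to 3.80 ± 1.39 FPKM (SD, n = 5 each). The AngII libraries were at 5.43 ± 1.46 FPKM, and Lien and AngII did not differ past the threshold (difference -0.43 in log2, SE 0.21, adjusted p = 0.740 by limma). Dusp10 spans chromosome 1 from 184013302 to 184075636 on the plus strand (GRCm38, GENCODE M21, introns included).

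Dusp6 encodes the phosphatase that dephosphorylates ERK in the cytoplasm. It stood at 33.0, 25.5, 20.5, 30.6 and 19.2 FPKM in NS and at 14.6, 15.7, 13.4, 12.8 and 14.1 FPKM in Lien. The 2 groups did not overlap, and the Lien libraries were close together. The log2 difference was -0.80 (SE 0.15, limma adjusted p = 0.0390), with AngII at 17.2 ± 2.30 FPKM. Spry4, a Sprouty protein that blocks receptor tyrosine kinase signalling upstream of ERK, stood at 6.68, 7.18, 5.69, 10.9 and 7.18 FPKM in NS and at 3.26, 3.51, 2.41, 2.54 and 3.49 in Lien. The Lien values were again all below NS, at a log2 difference of -1.06 (SE 0.17, limma adjusted p = 0.0175), and AngII lay at 3.23 ± 0.61 FPKM. Dusp10 kept its call in all 15 fits that left out 1 library. Spry4 lost it without NS 2, Lien 13 or Lien 14 (limma adjusted p up to 0.0659). Dusp6 lost it without NS 1, NS 2, NS 4, Lien 11 to Lien 15, or AngII 6, 7, 9 or 10 (up to 0.129). Both Spry4 and Dusp6 also lost it after quantile normalization (limma adjusted p = 0.0741 and 0.0828) and after scaling to one median (0.0857 and 0.278).

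The remaining members did not pass. Dusp4, a nuclear phosphatase of ERK and JNK, stood at 15.2 to 23.1 FPKM in NS and 4.24 to 15.04 in Lien (limma adjusted p = 0.134). Dusp5, a nuclear ERK phosphatase, stood at 2.06 to 4.32 and 0.784 to 1.67 (limma adjusted p = 0.140). Both were without overlap between the groups, as were Dusp8, Dusp16 and Spry2. Dusp1, the first phosphatase of the family to be induced by stress, went from 131 ± 26.9 to 82.4 ± 16.6 FPKM (difference -0.66 in log2, adjusted p = 0.471 by limma) and its groups overlapped. Spry1 lay on the other side, at 14.2 ± 2.27 FPKM in NS and 21.4 ± 5.06 in Lien (limma adjusted p = 0.380). The inhibitors thus did not all lie on 1 side.

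Of the kinases themselves, none of 25 measured cascade genes passed, and their median log2 difference was -0.06, with 19 on the lower side, or 13 after scaling to one median. Mapk3, which encodes ERK1, stood at 75.1 ± 24.8 FPKM in NS and at 72.4 ± 24.8 in Lien (SD, n = 5 each). Mapk14, which encodes p38α, went from 22.2 ± 6.75 to 14.5 ± 5.48 FPKM (difference -0.59 in log2, SE 0.26, adjusted p = 0.661 by limma). Mapk8, which encodes JNK1, stood at 6.10 ± 0.94 and 5.66 ± 2.44 FPKM. RNA levels do not show the phosphorylation that activates these kinases.

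**Figure D3:**
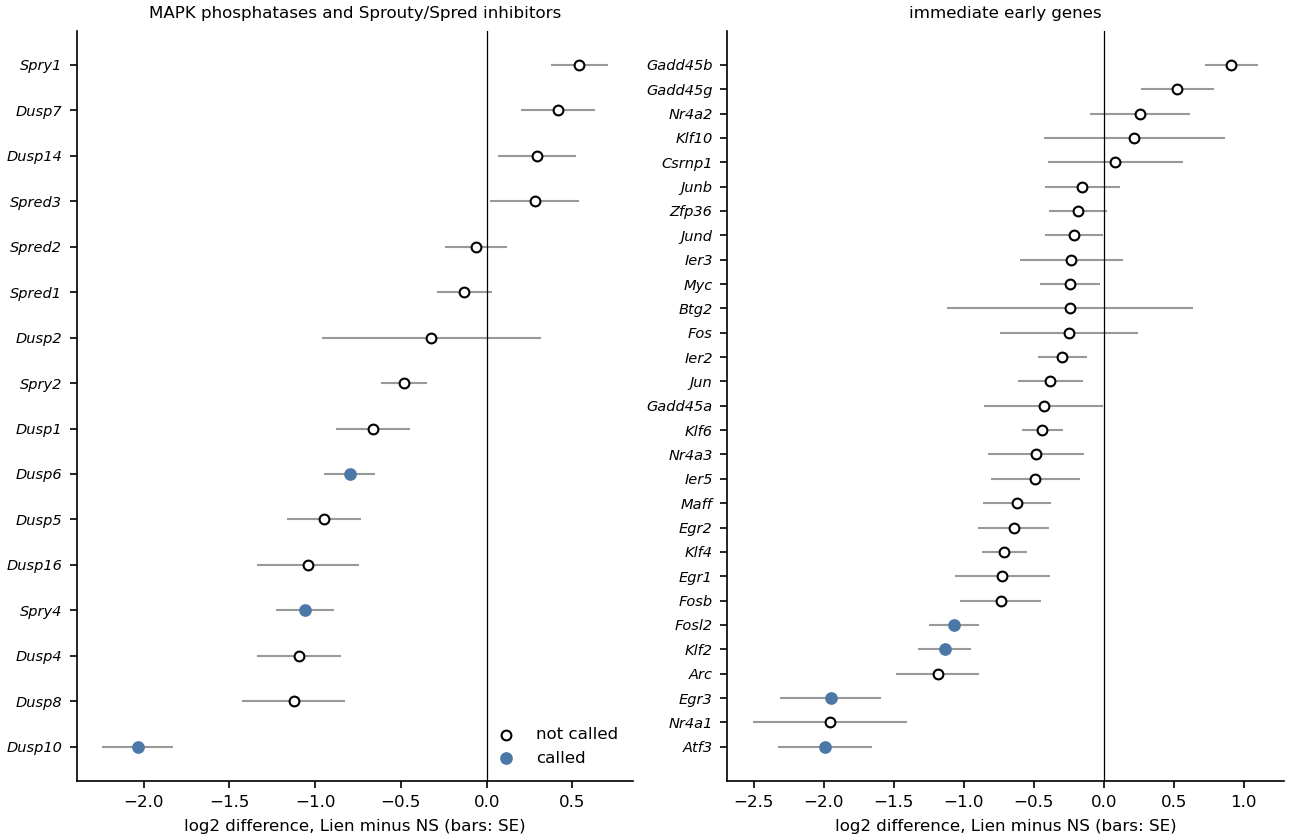
Log2 difference, Lien minus NS, of FPKM + 1 for the measured MAPK phosphatases and Sprouty or Spred inhibitors (left) and immediate early genes (right), with bars for 1 SE of the limma fit. Filled points passed the test over all genes, and of the 16 genes on the left 12 and of the 29 on the right 24 lie below 0.

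Of 29 measured immediate early genes 4 fell (Fosl2, Atf3, Egr3 and Klf2), against 0.199% of all tested genes, none rose, 24 were on the lower side, and the median log2 difference was -0.43. In 5 the Lien libraries were all below NS, as in 0.911% of all tested genes, and in 1, Gadd45b, all above, as in 0.892%. The median of the list was -0.01 between AngII and NS and -0.48 between Lien and AngII. Atf3, a transcription factor induced by cell stress, stood at 30.7, 31.0, 40.1, 20.01 and 21.7 FPKM in NS and at 10.8, 9.03, 2.24, 5.40 and 7.09 in Lien. The 2 groups were apart by about as much as the range of the Lien libraries. The log2 difference was -1.99 (SE 0.34, limma adjusted p = 0.0210), and AngII was at 13.3 ± 6.11 FPKM.

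Egr3, a zinc finger factor induced by growth factors, stood at 10.1, 7.88, 4.58, 2.88 and 2.72 FPKM in NS and at 1.44, 0.359, 0.296, 0.360 and 0.560 in Lien. The NS libraries spread widely, yet the lowest was above the highest Lien library (difference -1.95 in log2, SE 0.36, adjusted p = 0.0390 by limma). Fosl2, the Fos-family partner of Jun in the AP-1 factor, stood at 32.1, 25.9, 31.4, 21.2 and 25.1 FPKM in NS and at 18.7, 13.2, 8.92, 9.49 and 12.99 in Lien. No Lien library reached the NS range (difference -1.07 in log2, SE 0.18, adjusted p = 0.0202 by limma). Leaving out 1 library ended the call of Atf3 without NS 1, NS 2, NS 3 or Lien 14 (limma adjusted p up to 0.0758) and that of Fosl2 without NS 1, NS 2, NS 3, Lien 13 or Lien 14 (up to 0.0748). Egr3 lost it without NS 1, NS 2, NS 3, Lien 12 to Lien 15, AngII 6 or AngII 10 (up to 0.117).

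The best known early genes did not pass. Fos stood at 36.8 ± 26.1 FPKM in NS and 26.8 ± 11.6 in Lien, Jun at 70.8 ± 22.5 and 52.9 ± 14.01, and Egr1 at 33.4 ± 12.9 and 19.3 ± 6.31 (limma adjusted p = 0.967, 0.822 and 0.7105). The orphan nuclear receptor Nr4a1 stood at 42.9, 186, 26.7, 222 and 212 FPKM in NS and at 17.1 to 45.5 in Lien, with 2 NS libraries inside the Lien range (difference -1.96 in log2, SE 0.55, adjusted p = 0.276 by limma). The stress gene Gadd45b was on the higher side, at 8.92 to 15.4 FPKM in NS and 16.2 to 32.2 in Lien, without overlap (difference 0.91 in log2, SE 0.19, adjusted p = 0.0905 by limma). The early genes thus differed among themselves in size and direction.

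A further 6 genes that fell, Slc25a25, Sik1, Plk3, Ptger4, Tob1 and Ets2, are described together for convenience, chosen after their values were seen. Slc25a25, a calcium-regulated ATP carrier of mitochondria, stood at 25.0, 30.0, 19.2, 27.4 and 11.1 FPKM in NS and at 6.83, 5.64, 3.32, 3.73 and 3.56 in Lien (difference -2.03 in log2, SE 0.29, adjusted p = 0.00984 by limma). Sik1, a kinase induced by cAMP, stood at 54.004, 36.7, 35.3, 38.0 and 31.8 FPKM in NS and at 9.05, 9.43, 4.44, 10.8 and 23.2 in Lien (difference -1.84 in log2, SE 0.33, adjusted p = 0.0369 by limma). Neither gene had a Lien library within the NS range. Plk3, a stress-responsive kinase, went from 10.6 ± 2.76 to 3.33 ± 1.46 FPKM (difference -1.45 in log2, adjusted p = 0.00984 by limma), and Ptger4, the EP4 receptor for prostaglandin E2, from 9.17 ± 1.61 to 2.58 ± 1.00 (difference -1.54 in log2, adjusted p = 0.00984 by limma). Tob1, an antiproliferative factor, went from 104.8 ± 18.0 to 47.5 ± 12.9 FPKM, and Ets2, a transcription factor phosphorylated by ERK, from 19.7 ± 2.30 to 11.01 ± 2.56. The AngII means were 7.89 FPKM for Slc25a25, 10.7 for Sik1, 6.52 for Plk3, 4.07 for Ptger4, 47.1 for Tob1 and 16.1 for Ets2. Without the 6 nerve-rich libraries the calls of Slc25a25, Plk3 and Ptger4 ended (limma adjusted p = 0.0868, 0.147 and 0.0923). These genes kept their calls without any 1 library. Sik1 kept it in 3, Tob1 in 7 and Ets2 in 3 of the 15 such fits, losing it, among others, without NS 1, NS 2 or NS 4 (limma adjusted p up to 0.146).

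Endothelium is the inner lining of vessels. Of 19 endothelial markers 1 fell, Cldn5, against 0.199% of all tested genes. The median log2 difference of the list was -0.04, with 13 on the lower side, and 10 were on the higher side after scaling to one median (median 0.02) or without the 6 nerve-rich libraries. Pecam1 differed by -0.01 (limma adjusted p = 0.997). In bulk RNA, fewer cells of a type and less RNA per cell cannot be told apart. Cldn5, the tight junction protein claudin-5, stood at 187, 221, 225, 280.4 and 205 FPKM in NS and at 106, 61.9, 52.5, 99.7 and 92.1 in Lien. The groups were far apart (difference -1.47 in log2, SE 0.21, adjusted p = 0.00984 by limma), and AngII was at 107 ± 21.02 FPKM. Cldn5 spans chromosome 16 from 18776847 to 18778262.

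Bcl6b, a transcriptional repressor of endothelium, had the second smallest p of all genes. It stood at 11.97, 11.5, 9.98, 11.8 and 11.2 FPKM in NS and at 3.38, 3.59, 3.05, 3.93 and 2.93 in Lien (difference -1.49 in log2, SE 0.12, adjusted p = 2.15e-05 by limma). The AngII libraries filled the space between, at 7.41, 6.02, 6.07, 5.57 and 5.37 FPKM. All 3 groups were apart, and the difference between Lien and AngII (difference -0.69 in log2, SE 0.12) had a limma adjusted p of 0.175. Bcl6b spans chromosome 11 from 70224128 to 70229798 on the minus strand.

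Klf2, a transcription factor that laminar flow induces in endothelium, is on the immediate early list and on the flow list. It stood at 98.9, 83.0, 94.2, 95.5 and 81.5 FPKM in NS, at 82.6, 121.7, 67.6, 88.0 and 74.0 in AngII, and at 59.5, 46.8, 32.2, 40.05 and 30.5 in Lien. The AngII libraries overlapped NS and not Lien. Lien differed from NS by -1.14 on the log2 scale (SE 0.19, limma adjusted p = 0.0196) and from AngII by -1.05 (SE 0.19, limma adjusted p = 0.238). Klf4, its relative, went from 43.8 ± 7.92 to 26.7 ± 6.87 FPKM without passing (difference -0.71 in log2, adjusted p = 0.142 by limma). No other member of the list of 14 flow-responsive genes passed, where 0.231% of all tested genes did, and the median log2 difference of all 14 was 0.06. The call of Klf2 ended without NS 1, 2, 3 or 4 or Lien 13, 14 or 15 (limma adjusted p up to 0.0727), while Cldn5 and Bcl6b kept theirs in all 15 such fits. Cldn5 lost its call with the NS and Lien libraries alone and without the 6 nerve-rich libraries (limma adjusted p = 0.0528 and 0.0923).

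Apold1, an early response gene of endothelium, was listed at 33.7, 25.9, 32.8, 59.0 and 30.7 FPKM in NS, at 6.06, 0, 2.01, 10.1 and 13.7 in AngII, and at 0, 3.08, 3.30, 0 and 0 in Lien. It was thus listed at 0 in 3 of the 5 Lien libraries and in none of NS (limma adjusted p = 0.0136). With a pseudocount of 0.1 its call ended (limma adjusted p = 0.0848). The deposited table holds 1 transcript of Apold1. Nrarp, a Notch target that dampens Notch signalling, went from 11.6 ± 2.15 to 4.98 ± 1.19 FPKM (difference -1.08 in log2, adjusted p = 0.0149 by limma). Of 17 Notch genes Nrarp was the 1 that passed, against 0.231% of all tested genes, with 12 of the 17 on the lower side and a median of -0.27. Nrarp lost its call without NS 2 (limma adjusted p = 0.0537). It also lost it with the NS and Lien libraries alone and without the 6 nerve-rich libraries (limma adjusted p = 0.0796 and 0.216). Notch4, an endothelial Notch receptor, lay on the higher side, at 6.48 to 8.42 FPKM in NS and 9.26 to 11.2 in Lien (limma adjusted p = 0.364). Notch4 was the 1 of the 17 with every Lien library above every NS library, against 0.892% of all tested genes. The endothelial factor Tcf15 and the proton-sensing receptor Gpr4 fell as well, by 0.82 and 0.76 on the log2 scale (limma adjusted p = 0.0390 and 0.0196). Their means were 14.9 and 3.92 FPKM in Lien and 13.9 and 4.48 in AngII. After scaling to one median Gpr4 had a limma adjusted p of 0.196. Tcf15 and Gpr4 were named after their values were seen, and they kept their calls in 2 and 9 of the 15 fits without 1 library.

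**Figure D4:**
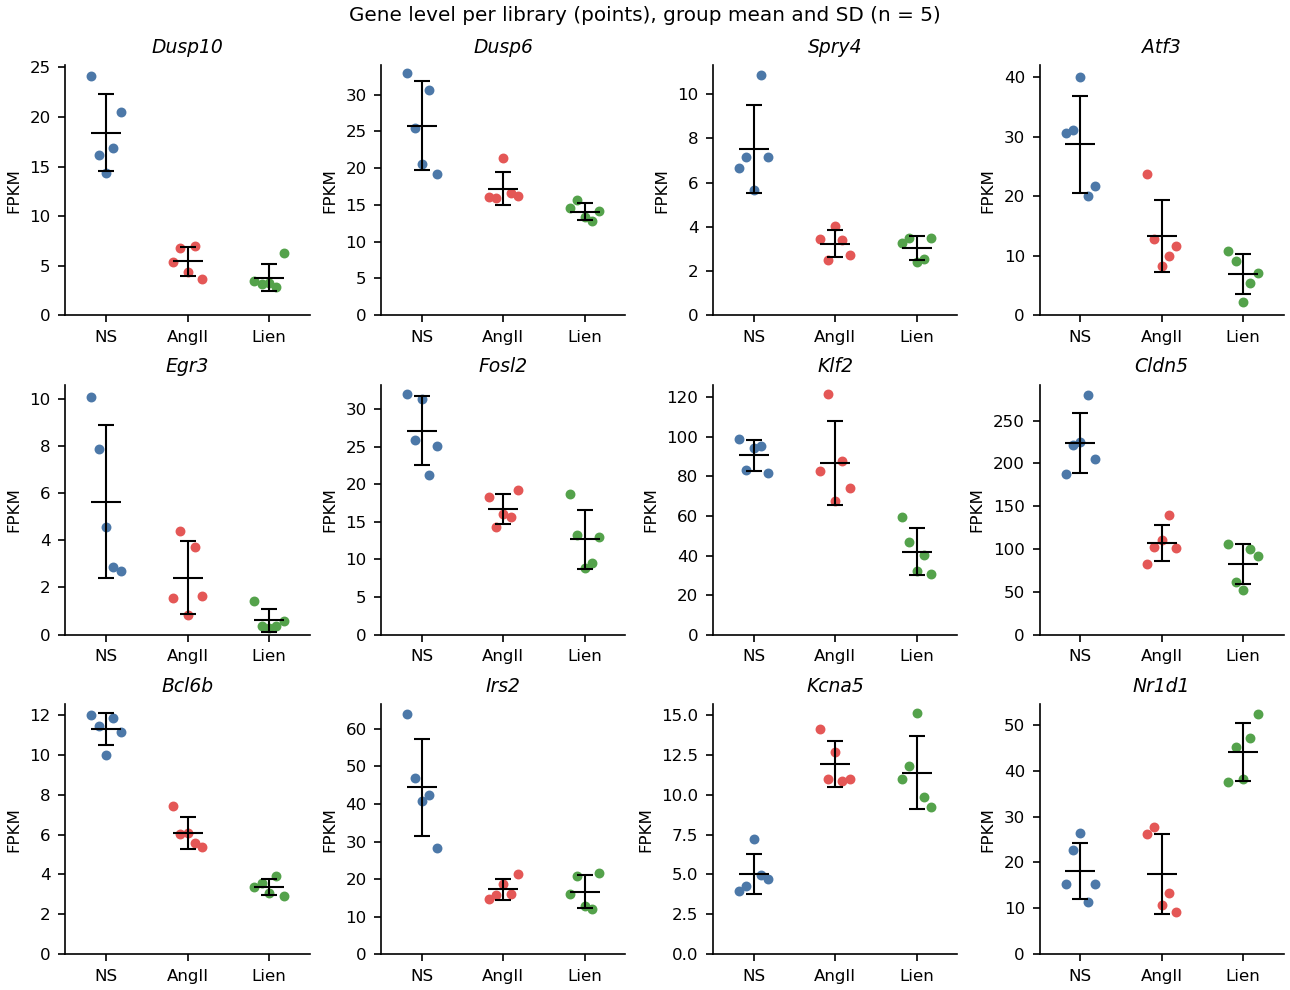
Level in FPKM of 12 genes in each library (points), with the group mean and SD (black, n = 5 each), for NS (blue), AngII (red) and Lien (green). Of the 12, 11 passed between Lien and NS and Nr1d1 did not, and for Klf2 the AngII points overlap NS and not Lien.

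Both insulin receptor substrates fell. Irs1 and Irs2 link the insulin and IGF1 receptors to PI3 kinase, and they were the 2 of 20 measured genes of insulin and IGF signalling that passed, against 0.231% of all tested genes, while the median of the list was -0.14. Irs2 stood at 64.0, 47.0, 40.7, 42.4 and 28.3 FPKM in NS and at 16.1, 20.7, 12.8, 11.9 and 21.6 in Lien (difference -1.36 in log2, SE 0.21, adjusted p = 0.0139 by limma). Irs1 stood at 11.6, 8.57, 7.34, 6.23 and 5.38 FPKM in NS and at 3.35, 3.31, 2.64, 2.44 and 3.31 in Lien (difference -1.10 in log2, SE 0.18, adjusted p = 0.0182 by limma). For both genes the whole Lien group lay below NS, and AngII was at 17.3 ± 2.75 FPKM for Irs2 and 4.14 ± 0.79 FPKM for Irs1. The transcription factor Foxo1, which insulin holds out of the nucleus, lay on the higher side, at 8.03 to 11.9 FPKM in NS and 13.1 to 16.7 in Lien, but did not pass (difference 0.56 in log2, SE 0.12, adjusted p = 0.124 by limma). Foxo1 was the 1 of the 20 with every Lien library above every NS library, against 0.892% of all tested genes. Irs2 lost its call without NS 2 (limma adjusted p = 0.0536), and Irs1 without NS 2, Lien 13 or Lien 14 (up to 0.0659). Both calls also ended after scaling to one median (limma adjusted p = 0.051 each) and with the NS and Lien libraries alone (0.0796 each). Without the 6 nerve-rich libraries the limma adjusted p was 0.260 for Irs2 and 0.281 for Irs1.

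The promoters of genes that fell were searched for 3 short motifs, on both strands, in RefSeq windows from 250 bases before to 50 after each start (GRCm38.p6). The E-box CACGTG, read by factors of the clock and Myc families, was in 6 of the 22 genes lower in Lien that had a window (27.3%; B3galt2, Dnajb9, Irs1, Irs2, Nrarp and Sgk1), in none of the 4 higher genes with one, in 11.4% of the 10967 tested genes with a window and in 7.15% of all 32851 windows. The cAMP response element TGACGTCA was in 1 of the 22 (4.55%, Slc25a25), against 3.38% of tested genes and 1.79% of windows, and the AP-1 site TGACTCA in 1 of the 22 (4.55%, Sucnr1), against 4.6% and 5.2%. The E-box and the cAMP element are their own reverse complements, and the last 2 motifs were added after the results were seen. A match is a description of the letters and shows no binding. The parts of 3 windows before the start are shown because they hold these motifs in genes described above. They lie on the minus strand at chr1:82291440-82291689 for Irs1, chr8:11008930-11009179 for Irs2 and chr2:32424067-32424316 for Slc25a25, written 5′ to 3′, and capitals mark the E-box in Irs1 and Irs2 and the cAMP response element in Slc25a25.
Irs1: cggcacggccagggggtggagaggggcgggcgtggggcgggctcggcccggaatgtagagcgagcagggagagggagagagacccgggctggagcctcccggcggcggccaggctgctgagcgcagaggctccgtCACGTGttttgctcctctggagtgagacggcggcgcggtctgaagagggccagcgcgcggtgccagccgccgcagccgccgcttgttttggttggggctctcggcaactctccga
Irs2: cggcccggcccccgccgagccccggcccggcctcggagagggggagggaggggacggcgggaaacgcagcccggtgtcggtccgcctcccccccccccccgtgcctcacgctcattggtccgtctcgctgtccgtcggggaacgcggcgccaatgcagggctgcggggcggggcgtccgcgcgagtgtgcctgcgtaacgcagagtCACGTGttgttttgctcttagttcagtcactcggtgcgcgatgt
Slc25a25: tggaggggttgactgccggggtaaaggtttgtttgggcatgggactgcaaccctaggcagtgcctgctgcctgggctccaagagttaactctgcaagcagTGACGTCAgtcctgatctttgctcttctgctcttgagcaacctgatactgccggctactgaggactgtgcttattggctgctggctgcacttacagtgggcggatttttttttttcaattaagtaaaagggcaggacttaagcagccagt
The first base of the E-box lies 115 bases before the start in Irs1 and 44 bases before it in Irs2. The Slc25a25 window lies inside the gene, which spans chromosome 2 from 32414487 to 32451445, so its start is an internal one. Whether the RNA that fell begins there was not tested.

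Genes of TGF-β signalling did not differ past the threshold. Of 24 ligands, receptors and Smads none passed, 13 were higher and 11 lower, and the median log2 difference was 0.05. Tgfb1, the main ligand, stood at 17.5 ± 5.32 FPKM in NS and 19.4 ± 8.67 in Lien (difference 0.10 in log2, SE 0.30, adjusted p = 0.978 by limma). The receptors Tgfbr1 and Tgfbr2 stood at 5.14 ± 1.54 and 36.5 ± 5.35 FPKM in NS and at 6.21 ± 2.72 and 34.8 ± 8.16 in Lien. For Smad2, Smad3 and Smad4, which carry the signal to the nucleus, the log2 differences were 0.17, -0.20 and -0.06, and for Smad7, which inhibits it, 0.52 (SE 0.30, limma adjusted p = 0.805). Of 16 target genes none passed, with the matricellular gene Ccn2 at 388 ± 48.9 and 571 ± 365 FPKM and Postn, periostin, at 172 ± 35.5 and 302 ± 147.

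Collagen and matrix genes were mostly on the higher side, and none passed. Of 26 measured, 22 were higher, also after both scalings, with a median log2 difference of 0.42, which was 0.24, with 17 higher, without the 6 nerve-rich libraries. Col1a1, the main chain of collagen I, stood at 155, 165, 362, 24.6 and 145 FPKM in NS and at 806, 179, 119.8, 336 and 335 in Lien. The groups overlapped, and 4 of the 5 Lien libraries lay below the highest NS library (difference 1.17 in log2, SE 0.61, adjusted p = 0.751 by limma). Col3a1 stood at 218 ± 116 and 397 ± 290 FPKM (difference 0.71 in log2, SE 0.43, adjusted p = 0.822 by limma), and its highest value, 877 FPKM, was in Lien 11, the library rich in nerve RNA. Of 25 matrix proteases and inhibitors 1 fell, against 0.199% of all tested genes. It was Adamts4, a protease that cuts the proteoglycans aggrecan and versican. It stood at 3.92, 3.18, 3.99, 2.84 and 2.71 FPKM in NS and at 1.68, 0.431, 0.483, 0.951 and 0.960 in Lien (difference -1.21 in log2, SE 0.18, adjusted p = 0.0116 by limma), with AngII at 0.906 ± 0.199. Its call held in all 15 fits without 1 library. The call ended with the NS and Lien libraries alone and without the 6 nerve-rich libraries (limma adjusted p = 0.0796 and 0.0868). No other member of that list passed.

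None of 18 contractile smooth muscle genes passed, 15 were on the lower side, and the median was -0.19. Acta2 stood at 1050.2 ± 239 FPKM in NS and 1282 ± 755 in Lien (difference -0.08 in log2, SE 0.57, adjusted p = 0.988 by limma), with Lien 13 the lowest library. Kcna5, a voltage-gated potassium channel that opposes contraction, was the 1 of 26 channel genes that passed, against 0.231% of all tested genes, and it rose. It stood at 3.98, 4.30, 7.21, 4.97 and 4.70 FPKM in NS and at 11.018, 11.8, 15.1, 9.87 and 9.21 in Lien (difference 1.04 in log2, SE 0.16, adjusted p = 0.0136 by limma). All Lien libraries were above all NS libraries, and the AngII libraries, at 11.9 ± 1.43 FPKM, lay in the Lien range. The call ended without NS 2 (limma adjusted p = 0.0536). It ended as well with the NS and Lien libraries alone and without the 6 nerve-rich libraries (limma adjusted p = 0.0796 and 0.0923). Of the other 25 channels 20 were lower without passing. Dlc1, which switches off RhoA, fell from 59.5 ± 12.2 to 25.6 ± 3.84 FPKM (difference -1.17 in log2, SE 0.16, adjusted p = 0.00763 by limma), with AngII at 30.5 ± 3.63. It was the 1 of 20 RhoA pathway genes that passed, against 0.231% of all tested genes. The call held in all 15 fits without 1 library and ended with the NS and Lien libraries alone (limma adjusted p = 0.0517). Agtr1a, the angiotensin receptor, stood at 10.4 ± 5.98 and 7.34 ± 3.40 FPKM (limma adjusted p = 0.926), and none of 11 renin-angiotensin genes passed.

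Output genes of the circadian clock and glucocorticoid-induced genes were mostly on the higher side. Of 16 clock output genes none passed, 13 were higher, and the median was 0.22. Nr1d1, the clock repressor REV-ERBα, stood at 15.3, 22.6, 26.4, 11.3 and 15.3 FPKM in NS and at 37.4, 45.2, 38.1, 47.2 and 52.3 in Lien. The groups did not overlap, but the test over all genes did not pass (difference 1.28 in log2, SE 0.29, adjusted p = 0.142 by limma), and AngII was at 17.5 ± 8.79 FPKM. In 2 of the 16, Nr1d1 among them, every Lien library was above every NS library, against 0.892% of all tested genes. Wee1, a kinase under clock control, and Dbp, a clock output factor, differed by 0.63 and 0.73 on the log2 scale (limma adjusted p = 0.266 each). Of the 7 activators and genes that peak with them 6 were lower without passing, Cry1 at 4.38 to 6.46 FPKM in NS and 2.23 to 4.36 in Lien. Cry1 was the 1 of the 7 with every Lien library below every NS library, against 0.911% of all tested genes. The hour at which tissue was taken is not in the labels. Of 16 glucocorticoid-induced genes 12 were higher, with a median of 0.32. The 1 that passed was lower, against 0.199% of all tested genes. It was Sgk1, a kinase induced by aldosterone and glucocorticoids, at 112.6 ± 19.3 FPKM in NS and 66.6 ± 8.72 in Lien (difference -0.74 in log2, SE 0.14, adjusted p = 0.0400 by limma), and its call ended without any 1 of the 15 libraries (limma adjusted p up to 0.120). Klf15, a factor induced by glucocorticoids, stood at 13.002 to 25.3 FPKM in NS and 26.8 to 36.8 in Lien (limma adjusted p = 0.143). Klf15 was the 1 of the 16 with every Lien library above every NS library, against 0.892% of all tested genes.

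The gene with the smallest p was B4galt1, which adds galactose to glycoproteins. It stood at 5.56, 7.18, 6.93, 4.64 and 4.52 FPKM in NS and at 32.2, 21.7, 25.6, 24.6 and 23.1 in Lien (difference 1.97 in log2, SE 0.15, adjusted p = 1.59e-05 by limma). AngII was at 4.33 ± 0.41 FPKM, and Lien differed from AngII by 2.30 on the log2 scale (SE 0.15, limma adjusted p = 1.9e-06). B4galt1 was 1 of the 2 genes that passed between Lien and AngII. It spans chromosome 4 from 40804602 to 40854005 on the minus strand. Of its 2 transcripts in the table, ENSMUST00000030121 stood at 2.02 to 5.00 FPKM in NS, 3.68 to 4.73 in AngII and 21.6 to 32.1 in Lien. The other, ENSMUST00000108096, stood at 1.48, 5.16, 1.93, 0.0872 and 0.166 FPKM in NS and at most at 0.153 in Lien, and it made up most of the gene sum in NS 2. An assembled transcript without public identifier or gene had the opposite profile. It stood at 25.3, 26.5, 28.8, 26.3 and 29.6 FPKM in NS, at 26.4 to 31.7 in AngII, and at 0, 2.32, 0.00785, 0 and 0.583 in Lien (limma adjusted p = 7.31e-06 over transcripts). Added to the gene sum, it gave 33.1 ± 2.12 FPKM in NS, 34.0 ± 2.33 in AngII and 26.02 ± 3.54 in Lien (SD, n = 5 each). The Lien values of that total ran from 23.7 to 32.2 FPKM and the NS values from 30.9 to 35.7, so that total overlapped between the groups and its mean was lower in Lien. Whether the 2 transcripts come from 1 locus was not tested, since the table gives no position.

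**Figure D5:**
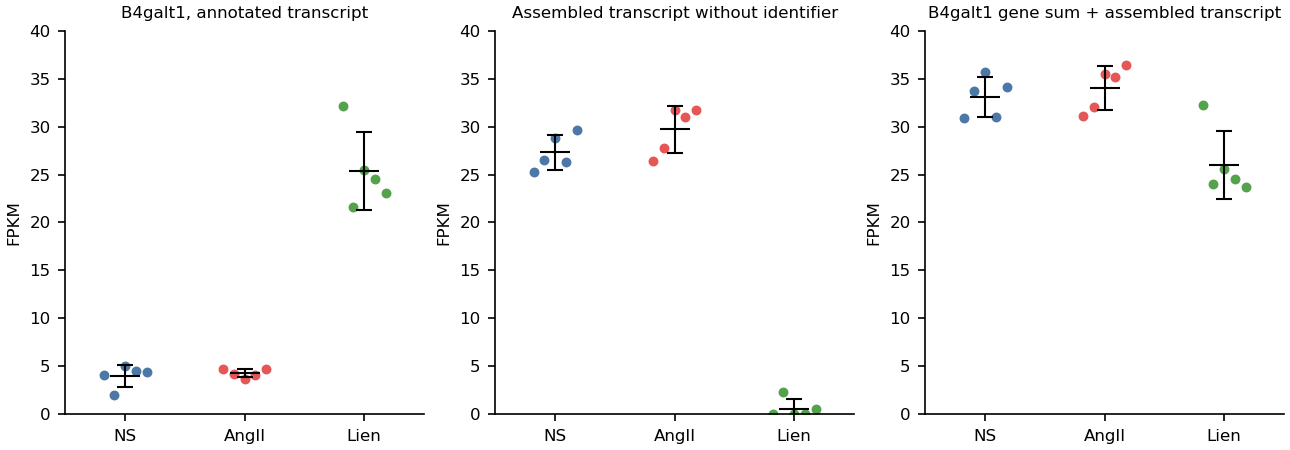
FPKM per library (points) with group mean and SD (black, n = 5 each) of the annotated B4galt1 transcript (left), of an assembled transcript with no public identifier (middle) and of the sum of the B4galt1 gene and that transcript (right). The annotated transcript is at 21.6 to 32.1 FPKM in Lien and at most 5.00 elsewhere, and the assembled one is at 25.3 or more outside Lien and at most 2.32 in Lien.

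At the level of single transcripts, 12 of 41843 tested (0.0287%) passed, 11 of them lower, and 8 belonged to an annotated gene. Those 8 were of B4galt1, Bcl6b, Dusp10, Slc25a25, Dlc1, Cldn5, Adamts4 and Apold1, each in the direction of its gene. Of the 4 without a public identifier all fell, 1 of them the transcript set beside B4galt1. Without Lien 13, 5 transcripts passed. Among the 16 measured galactosyl- and glucuronyltransferases B3galt2 fell and B4galt1 rose, against 0.199% and 0.0321% of all tested genes. B3galt2 went from 18.7 ± 4.67 to 6.63 ± 2.69 FPKM (difference -1.40 in log2, SE 0.23, adjusted p = 0.0176 by limma). Its call ended without NS 1, NS 2 or Lien 12 to Lien 14 (limma adjusted p up to 0.0683). B3gat2, a glucuronyltransferase, stood at 0.931 to 1.35 FPKM in NS and 0.764 to 1.34 in Lien (limma adjusted p = 0.893), with AngII at 0 to 0.261.

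The other genes that passed had diverse roles. Tnks2, a poly-ADP-ribose polymerase, rose from 6.22 ± 3.91 to 18.6 ± 1.90 FPKM (difference 1.56 in log2, adjusted p = 0.0390 by limma), with NS 3 at 13.2 and the other NS libraries at 4.03 to 5.26. AngII was at 15.8 ± 6.46 FPKM. Spsb1, a ubiquitin ligase adaptor, rose from 17.4 ± 3.61 to 39.0 ± 11.3 FPKM (difference 1.09 in log2, adjusted p = 0.0390 by limma), with AngII at 31.4 ± 4.97. It was the called gene whose groups overlapped. Rpl36-ps12, a processed pseudogene of a ribosomal protein gene, was higher by 1.05, and reads of near-identical copies make its value uncertain. Dnajb9, a chaperone of the endoplasmic reticulum, fell from 37.4 ± 2.05 to 25.6 ± 1.57 FPKM (difference -0.53 in log2, adjusted p = 0.0283 by limma). It was the 1 of 19 genes of the unfolded protein response that passed, against 0.231% of all tested genes. Fam172a fell from 5.02 ± 1.20 to 0.985 ± 0.241 FPKM (difference -1.58 in log2, adjusted p = 0.0231 by limma). Kctd12b, Sucnr1, which is the succinate receptor, Tnfrsf10b, a death receptor, and Irx3, a homeobox factor, fell by 0.97, 1.15, 0.93 and 1.00 on the log2 scale. Those 4 and the pseudogene were named after their values were seen. After quantile normalization and after scaling to one median the call of Kctd12b ended (limma adjusted p = 0.0751 and 0.0935). Of the 9 genes of this paragraph Kctd12b kept its call without any 1 library, and the others lost it in at least 3 of the 15 such fits, all of them without NS 2 (limma adjusted p up to 0.140). For Sucnr1 the others were NS 1 and Lien 13, for Rpl36-ps12 NS 1 and Lien 14, and the remaining 6 lost it in 8 to 12 fits.

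In the remaining lists no gene passed. These were the lists for basement membrane, synthetic smooth muscle, endothelin and nitric oxide, inflammation, chemokines, complement, interferon response, antigen presentation, growth factors, heat shock, cold response, antioxidant genes, glycolysis, oxidative phosphorylation, mitochondrial messages, fat oxidation, fat synthesis, cholesterol synthesis, ribosomal proteins, cell cycle, autophagy, integrins and apoptosis. The interferon list had 20 of 24 genes higher (median 0.17), and the list of fat synthesis had 14 of 18 higher (median 0.41), with fatty acid synthase Fasn at 118 ± 25.95 FPKM in NS and 276 ± 113 in Lien (limma adjusted p = 0.524). Antigen presentation (12 of 14), synthetic smooth muscle (13 of 16) and cell cycle (19 of 24) were also mostly higher. Of 28 oxidative phosphorylation genes 24 were higher, or 13 after quantile normalization. For Nfkbia, which restrains NF-κB, the levels were 60.1 ± 14.5 and 90.7 ± 12.2 FPKM (limma adjusted p = 0.391).

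Several marker lists of neighbouring tissues were on the lower side in Lien. All 12 skeletal muscle markers (median log2 -2.10, means of the list 1.11 to 9.64 in NS and 0.84 to 2.55 in Lien), 9 of 10 cardiomyocyte markers (-1.21), 12 of 12 sympathetic neuron markers (-0.76), 7 of 7 mesothelial markers (-0.77, means of 1.56 to 2.59 and 0.52 to 1.82) and 7 of 7 mast cell markers (-0.54) were lower in Lien, and none of these genes passed. Brown adipocyte markers were on the other side, with 8 of 11 higher (median 0.16), or 6 of 11 after quantile normalization. Without the 6 nerve-rich libraries 8 of 12 sympathetic neuron markers were higher (median 0.03), and the skeletal muscle median was -0.33. In that fit the cardiomyocyte median was further from NS, at -2.99, and the mast cell median was -0.90. The mesothelial median was -0.60 and the brown adipocyte median 0.22. Without the 6 libraries rich in nerve RNA (3 NS, 2 AngII and 4 Lien left), 4 of the 36 genes described kept their call besides B4galt1, which were Bcl6b, Dusp10, Dlc1 and Tnks2, and 10 genes passed in all. With the neuron and cardiomyocyte means as covariates 29 genes passed, 20 of them lower, and with the skeletal muscle and brown fat means 43, 34 of them lower. No gene of the 36 changed direction in any of the 28 alternative fits. For the 35 whose groups did not overlap, leaving out libraries could not reverse the direction, so those fits do not test it. The part of these tissues in the gene results was otherwise not tested.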

How the data were processed

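RNA was sequenced after rRNA depletion (1 μg of total RNA and NEBNext kits, per the labels' protocols). No source used here gives the aligner, quantifier, genome build or annotation, and the submitters' processing notes name limma without a version. The deposited table gives values for 131437 transcripts in 15 sample columns. The unit is not named there, and the deposited values were read as FPKM from their sums per library. Of the low values 99.7% lay on even steps, which gives relative depth only, and absolute depth is not known, so no counting intervals are given. Ensembl transcripts (99965 found in GENCODE M21, 1243 not) were summed to 32930 genes. The 30229 transcripts without a public identifier, 11.0% to 17.0% of the sum per library, stayed out of the gene sums.

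Genes with at least 0.5 FPKM in 5 libraries were fitted on log2(FPKM + 1), a pseudocount of 1 that understates changes of low genes, with limma 3.58.1 in R 4.3.3. One fit of 3 group means over 15 libraries (12 residual degrees of freedom, trend and robust options) gave each contrast, adjusted by Benjamini-Hochberg over all genes. The fit was run on simulated data with independent noise for each gene and library. The real libraries share differences in tissue content, so that run does not show how the fit performs on them. Groups came from the labels. The members, gene lists and tests were chosen with earlier results of these data known. Genes were named by a rule: the 15 called genes that rose most and the 15 that fell most (mean of at least 1 FPKM, every Lien library beyond the NS median, no pseudogenes), up to 4 called members of each list or else its 2 highest, and a fixed set of MAP kinase, TGF-β, collagen, actin and angiotensin receptor genes with B4galt1 and B3gat2. Of the named genes that did not pass, not all are described. One gene of the fixed set is not reported here. Names outside the rule are marked as chosen after their values were seen, or stand as members of a list. Those list members, such as Foxo1, Notch4, Klf15 and Gadd45b, were also picked with their values known. Alternatives changed the libraries, pseudocount, filter, scaling, weights and covariates. Tables and figures were made in Python 3.11.15 (numpy 2.4.6, pandas 2.3.3, matplotlib 3.10.9).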

Additional observations from a re-analysis of the deposited data

Results flagged for a closer look

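Within groups of 5, 16 of 104 sets of values (1 gene in NS or in Lien each) had 1 library set apart from the other 4 by a gap beyond Dixon's 95% limit. Not every gene described above was checked. For independent, normally distributed values chance flags about 1 in 20. The FPKM values checked share libraries and need not be normal, so 16 of 104 is not read as an excess. Among genes lower in Lien, Lien 15 stood high for Dusp10 (6.26 FPKM), Lien 12 for Plk3 (5.86), and Lien 11 for Egr3 (1.44) and Ets2 (15.4), each still below every NS library. NS 4 stood high for Apold1 (59.0 FPKM) and Spry4 (10.9), and NS 1 for Sik1 (54.004). Among genes higher in Lien, NS 3 stood high for Tnks2 (13.2 FPKM) and NS 5 for Spsb1 (23.7), the latter above the lowest Lien library. In genes that did not pass, Lien 11 stood high for Mapk3 (115.8 FPKM), Tgfb1 (34.6), Tgfbr1 (11.002), Tgfbr2 (49.2) and the angiotensin receptor gene Agtr1a (13.2), and NS 3 for Mapk8 (7.73) and Col3a1 (422). Lien 11 and NS 3 are also libraries rich in sympathetic neuron RNA, and whether that bears on these values was not tested.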

How the results depend on the processing

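Of 36 genes called (5 higher, 31 lower), 3 (B4galt1, Bcl6b and Dusp10) kept their call in all 28 alternatives, 11 in all 15 fits without 1 library, and none changed direction. Leaving out libraries could not change it for the 35 whose groups did not overlap. The count was 7 (1 higher, 6 lower) with the NS and Lien libraries alone, 23 (3 and 20) without the filter, 94 (24 and 70) with library weights, 10 (6 lower) without the 6 nerve-rich libraries and 13 (7 lower) without NS 3 and Lien 13, a choice made after seeing the data. With quantile normalization 10 were higher, with one median 10 were higher and 19 lower, with neuron and cardiomyocyte covariates 9 and 20, and with muscle and brown fat covariates 9 were higher. Leaving out 1 library gave 11 to 36 genes, 1 to 7 higher and 10 to 33 lower, with 18 without NS 1, 11 without NS 2, 23 without NS 4, 20 without Lien 13 and 16 without Lien 14. For transcripts this range was 5 to 18, with 12 in the full fit. The cause of these changes was not tested, except that leaving out libraries removes degrees of freedom. No paired analysis was possible because the NS numbers (1 to 5) and the Lien numbers (11 to 15) do not overlap. Differences of genes near 0.5 FPKM are limited by unknown depth.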
